A study of Mus musculus with 21 samples.

Results

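The 8 genes described here form the core transcriptional loop of the circadian clock: the activators Arntl, Clock and Npas2 and the repressors Per1, Per2, Per3, Cry1 and Cry2. They were taken by gene symbol, matched to the Ensembl identifiers of the count files, and are 8 of the 55536 genes listed there. The members were taken as a named loop, but that choice was made with earlier results of these data known. All 8 genes passed the filter on low counts, which kept 27229 genes. Islets came from male CBA mice on regular diet (RD), on high-fat diet (HFD) or on HFD into which O304 had been mixed at 0.8 mg per g of diet (HFD-O304). The diets began at 10 weeks of age, and islets were isolated from mice of 20 weeks. The results text of the study gives 10 weeks of diet and its methods give 9. O304 is a small molecule that activates AMPK, a kinase that responds to falling cellular energy. Each of the 7 samples per group was RNA from 150 islets out of a pool from 5 mice, so that a sample averages over animals and over all cell types of the islet. The hour at which the islets were taken is not given in the sources used here, and each pool gives 1 time point, so that a shifted clock and a change of amplitude or of mean level cannot be told apart in these values. In RNA from whole islets, fewer cells of a type and less RNA per cell cannot be told apart either.

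In the core loop, the proteins made from Arntl (BMAL1) and from Clock or its paralogue Npas2 pair up and switch on genes through E-box sequences, among them the Per and Cry genes. PER and CRY proteins accumulate, enter the nucleus and repress the pair that induced them, and as they decay the cycle starts again. In most tissues Arntl RNA therefore peaks when Per RNA is low. In a second loop, REV-ERB proteins (Nr1d1, Nr1d2) repress and ROR proteins activate Arntl and Npas2 through ROR elements, while the PAR bZIP activators DBP, TEF and HLF and the repressor NFIL3 compete for D-boxes such as those of the Per genes. Islets hold a clock of their own, and the islet clock is known to influence insulin secretion. AMPK is known to phosphorylate CRY proteins, a protein change that read counts do not measure.

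The following stretches of RefSeq promoter sequence (GRCm38.p6) show the members' best known kinds of clock element that were present in the 250 bases before to 50 bases after an annotated start. The element is in capitals, read 5′ to 3′ along the gene's own strand. The 2 D-boxes of Per3 are shown because Per3 differed most upwards, and they lie upstream of the gene at chr4:151044852-151044881 and chr4:151044805-151044834 (minus strand), the elements beginning 205 and 158 bases before the start. The ROR element of Arntl, which differed downwards, is shown with chr7:113207531-113207558 (plus strand), where the element begins 31 bases after a start and within the annotated 5′ UTR. The E-box and D-box of Per1 lie at chr11:69098772-69098799 and chr11:69098914-69098943 (plus strand), inside an intron of the longest annotated form and 166 and 24 bases before another start. The E-box of Cry1 lies upstream of the gene at chr10:85185098-85185125 (minus strand), 60 bases before the start, and the related E-prime box of Cry2, read here on its reverse strand, at chr2:92434219-92434246 (minus strand), 166 bases before the start.
Per3, first D-box: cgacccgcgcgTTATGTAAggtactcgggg
Per3, second D-box: cccgcccgcggTTATGTAAcccccgccgtg
Arntl, ROR element core: aggcagaaagtAGGTCAgggacggaggt
Per1, E-box: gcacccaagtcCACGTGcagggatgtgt
Per1, D-box: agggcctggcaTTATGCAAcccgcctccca
Cry1, E-box: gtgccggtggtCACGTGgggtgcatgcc
Cry2, E-prime box: cacatggtgggAACGTGagggggcggag

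The letters searched, on both strands, were CACGTG (E-box), CACGTT (E-prime box), TTATGNAA (D-box), AGGTCA (core of the ROR element) and TGACGTCA (cAMP response element), and no letters counted for more than 1 of them. A gene can have several windows of this length, 1 for each annotated start. Of 27025 genes with a window, 8.09% held an E-box in at least 1 of them, 5.44% an E-prime box, 3.99% a D-box, 18.1% the ROR core and 2.03% a cAMP response element, and of all 32851 windows the shares were 7.15%, 4.68%, 3.38%, 16.3% and 1.79%. Per2 had no window and was not searched. Among the 7 members with a window, counted by gene, an E-box was found in 2, an E-prime box in 2, a D-box in 2, the ROR core in 3 and a cAMP response element in 0. Besides the sites printed above, Clock and Per1 held the ROR core and Cry1 an E-prime box, and the window of Npas2 held none of the 5 motifs. A match of letters is a description and does not show that a factor binds there.

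RNA was sequenced to between 13809266 and 48922569 read pairs counted on genes per sample (median 38719302), HFD-O304 replicate 2 being the shallowest. The samples were islets by their markers: 9 beta cell genes took 27.6% to 34.3% of the pairs on genes, and 10 acinar genes took 0.00207% to 0.860%. By the running numbers of the libraries, replicates 1 to 4 of every group come before replicates 5 to 7. These parts are called library sets here, although no label names a set or a batch. Between the sets 768 of 27229 genes (2.82%) differed. The labels of HFD-O304 replicate 1 disagree, its diet tag reading HFD and its title HFD-O304. It was assigned by its title, and values without it are given where they change a call.

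Per kilobase of annotated exon, the 8 genes were measured at levels that span more than a factor of 10. In RD islets Cry2 stood highest, at 475 ± 47.2 normalized counts per kb (mean ± SD, n = 7), followed by Clock at 331, whose lowest and highest RD samples were 317 and 349 per kb. Cry1, Per1, Per2 and Arntl formed a middle tier, with means per kb of 224, 212, 167 and 165, and each overlapped its neighbour in this order. Npas2, at 63.7 ± 9.33 per kb, and Per3, at 33.6 ± 7.76 per kb, were the lowest, and neither overlapped the gene above it. In HFD islets the order was the same apart from Per1 (194 per kb) and Cry1 (192 per kb), whose samples overlapped. In HFD-O304 islets Per3 rose in this order to 91.1 ± 25.2 per kb, past Arntl at 78.8 ± 13.7, although the samples of the 2 genes overlapped, and Npas2 was left lowest at 20.4 ± 8.18 per kb.

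**Figure D1:**
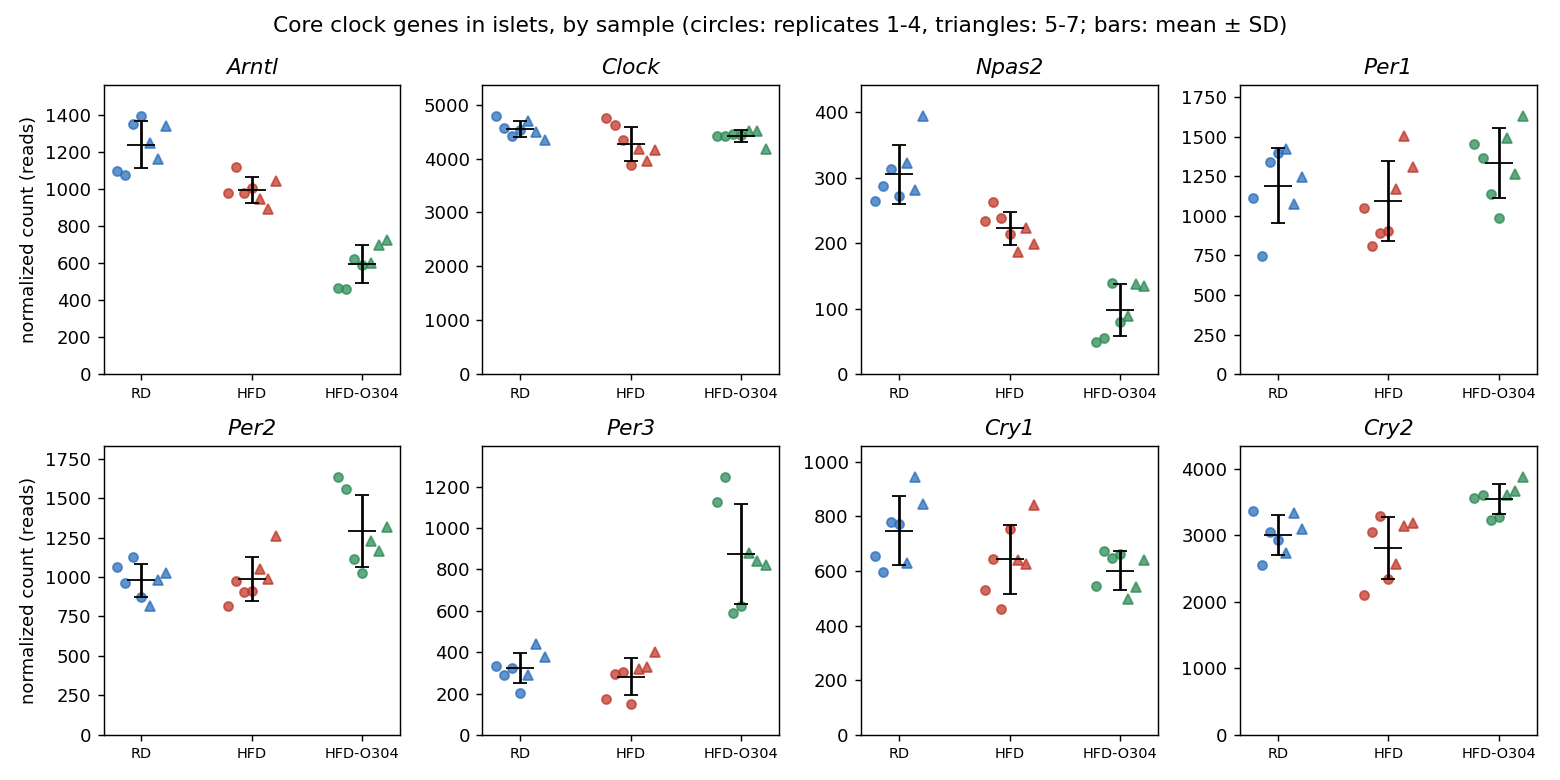
Normalized counts (vertical axes, from 0, reads scaled by library size) of the 8 core clock genes in each of 7 RD, 7 HFD and 7 HFD-O304 samples, with bars for mean ± SD, circles for replicates 1 to 4 and triangles for replicates 5 to 7. All HFD-O304 samples lie below every other sample for Arntl and Npas2 and above every other sample for Per3, while the groups overlap for Clock, Per1, Per2, Cry1 and Cry2.

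Of the activators, Arntl, whose product BMAL1 is the partner that the loop cannot do without, had its highest values in RD samples and its lowest in HFD-O304 samples. Its normalized count (reads divided by a library size factor) ran from 1076 to 1393 with a median of 1248 in RD islets. In HFD islets it ran from 890 to 1116 with a median of 977. In HFD-O304 islets it ran from 460 to 724 with a median of 599, so that the highest HFD-O304 sample lay below the lowest sample of either other group, and the 2 lowest were replicates 2 and 1.

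Npas2, which encodes a transcription factor that can stand in for CLOCK, followed the same order from a lower level. RD samples had 265 to 394 normalized counts (median 287), HFD samples 187 to 263 (median 223) and HFD-O304 samples 49.1 to 139 (median 89.0). No 2 of the 3 groups overlapped. Again HFD-O304 replicates 1 and 2 were the lowest, with 49.1 and 54.9 normalized counts.

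Clock, which encodes the usual partner of BMAL1, was the steadiest member. Its normalized count ran from 4349 to 4791 in RD islets (median 4525), 3882 to 4754 in HFD islets (median 4177) and 4181 to 4518 in HFD-O304 islets (median 4443), and all 3 groups overlapped. Of the 13216 genes that averaged 50 or more normalized counts, 3.25% had a smaller SD within groups on the log2 CPM scale than that of Clock, 0.072. This SD depends on level, and among the 1000 genes nearest to Clock in level 9.6% had a smaller one.

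Of the repressors, Per3, which encodes a PER protein with a lesser part in keeping the rhythm of mice than PER1 and PER2, differed most between groups. Its normalized count ran from 203 to 440 in RD islets (median 325) and from 150 to 401 in HFD islets (median 303). In HFD-O304 islets it ran from 587 to 1249 (median 841), and the lowest of these samples lay above every RD and HFD sample. HFD-O304 replicates 2 and 1, the lowest in Arntl, were the highest in Per3, at 1249 and 1127.

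Per2, a main repressor of the loop, had 815 to 1126 normalized counts in RD islets (median 983), 817 to 1258 in HFD islets (median 976) and 1026 to 1635 in HFD-O304 islets (median 1228). The HFD-O304 samples overlapped both other groups, and replicates 1 and 2 stood above the rest at 1635 and 1554. Per1, a repressor that is also induced at once by light, cAMP and other signals, had 744 to 1422 normalized counts in RD, 808 to 1505 in HFD and 985 to 1631 in HFD-O304 islets, with medians of 1248, 1053 and 1366.

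Cry2, which encodes one of 2 cryptochromes, the strongest repressors of the loop, had 2549 to 3359 normalized counts in RD islets (median 3049), 2108 to 3283 in HFD islets (median 3049) and 3226 to 3879 in HFD-O304 islets (median 3609). Every HFD-O304 sample lay above the median of both other groups, and the 7 samples still overlapped both. Cry1 had 596 to 946 normalized counts in RD (median 774), 461 to 840 in HFD (median 641) and 499 to 674 in HFD-O304 islets (median 641), and its groups overlapped throughout.

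In HFD vs RD islets no member of the core loop passed the test. At an adjusted p under 0.01, 0 of the 8 members differed by edgeR's quasi-likelihood test, where 3.54% of all 27229 genes did (2.00% higher and 1.54% lower), while 2 members had an unadjusted p under 0.05. DESeq2's Wald test called 1 of the 8, Arntl. The largest differences were lower values of 2 activators in HFD islets. The log2 fold change of Npas2 was -0.46 (SE 0.17, adjusted p = 0.0900), and its 7 HFD samples lay below all RD samples, a separation that 1.35% of all genes showed, 0.687% in that direction. That of Arntl was -0.32 (SE 0.088, adjusted p = 0.0209, edgeR), with 6 of 7 HFD samples below the lowest RD sample.

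The other members in HFD vs RD islets had log2 fold changes between -0.22 (Cry1) and 0.010 (Per2). The 95% interval, from the SE and 18 residual degrees of freedom, was -0.20 to 0.22 for Per2 and -0.20 to 0.0078 for Clock, which bounds how far these genes could differ. For Per3 it was wider, -0.59 to 0.21. Over the 8 members the median log2 fold change was -0.16, and over all genes tested it was -0.0044.

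In HFD-O304 vs RD islets, Arntl and Npas2 were lower and Per3 was higher. These 3 of 8 members passed the test, 2 of them lower and 1 higher, where 1.31% of all genes tested passed, 0.903% lower and 0.404% higher. Arntl had a log2 fold change of -1.05 (SE 0.089, adjusted p = 3.31e-08, edgeR), a 2.07-fold lower level. Npas2 had the largest decrease, with a log2 fold change of -1.61 (SE 0.17, adjusted p = 1.68e-06, edgeR), or 3.04-fold lower. Per3 was 2.70-fold higher, with a log2 fold change of 1.43 (SE 0.19, adjusted p = 2.52e-05, edgeR).

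For these 3 genes the 7 HFD-O304 and 7 RD samples did not overlap, as for 1.56% of all genes, 0.870% in the lower and 0.694% in the higher direction. The remaining members did not pass in HFD-O304 vs RD islets. Per2 came nearest, with a log2 fold change of 0.40 (SE 0.099, adjusted p = 0.0214) and 5 of 7 HFD-O304 samples above the highest RD sample. It passed with DESeq2 (adjusted p = 0.00503) and, by edgeR, without HFD-O304 replicate 4 (adjusted p = 0.00919). Cry1 had -0.31 (95% interval -0.55 to -0.078), Cry2 0.24 (0.058 to 0.42), Per1 0.16 (-0.12 to 0.45) and Clock -0.041 (-0.14 to 0.062). The 2 cryptochromes thus had log2 fold changes of opposite sign, with adjusted p-values of 0.153 for Cry1 and 0.156 for Cry2 (edgeR).

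HFD-O304 and HFD mice shared the fat diet, with and without O304 mixed into it, but this was not their only difference. The paper reports that RD mice ate the most and HFD mice the least, with HFD-O304 mice between them. It also reports lower fasting glucose and insulin in HFD-O304 than in HFD mice. The part of food intake, glucose and insulin in the results was not tested. Of the 8 members, 5 passed in HFD-O304 vs HFD islets, where 11.9% of all genes did. Arntl and Npas2 were lower and Per2, Per3 and Cry2 were higher, and of all genes 6.79% were lower and 5.08% higher. Per3 had a log2 fold change of 1.62 (SE 0.19, adjusted p = 5.54e-07, edgeR), a 3.08-fold higher level. Npas2 was 2.21-fold lower, at -1.15 (SE 0.17, adjusted p = 2.08e-05, edgeR), and Arntl 1.66-fold lower, at -0.73 (SE 0.089, adjusted p = 1.05e-06, edgeR). The samples of these 3 genes did not overlap, as for 6.17% of all genes, 3.61% in the lower and 2.56% in the higher direction.

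Per2 and Cry2 moved less in HFD-O304 vs HFD islets, and their groups overlapped. Per2 was 1.31-fold higher (log2 fold change 0.39, SE 0.099, adjusted p = 0.00534, edgeR), with 3 of 7 HFD-O304 samples above every HFD sample. Cry2 was 1.26-fold higher (0.34, SE 0.086, adjusted p = 0.00580, edgeR), with 5 of 7 above. Per1 had 0.29 (SE 0.14, adjusted p = 0.147, edgeR), Cry1 -0.096 (95% interval -0.33 to 0.14) and Clock 0.054 (-0.049 to 0.16). Leaving out HFD replicate 4, HFD-O304 replicate 1 or HFD-O304 replicate 7 took both Per2 and Cry2 over the threshold, to adjusted p-values of 0.0162 and 0.0206, 0.0217 and 0.0108, and 0.0119 and 0.0150, and left 3 members called in each case. Per2 alone no longer passed without HFD replicate 1 (adjusted p = 0.0135), 2 (0.0103) or 3 (0.0130) or HFD-O304 replicate 2 (0.0150), and Cry2 alone without HFD replicate 5 (0.0154) or HFD-O304 replicate 5 (0.0113) or 6 (0.0127).

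The 2 comparisons of HFD-O304 islets share those 7 samples, so that their log2 fold changes are not independent and are given side by side only: -1.05 and -0.73 for Arntl, -1.61 and -1.15 for Npas2, and 1.43 and 1.62 for Per3, against RD and HFD respectively.

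**Figure D2:**
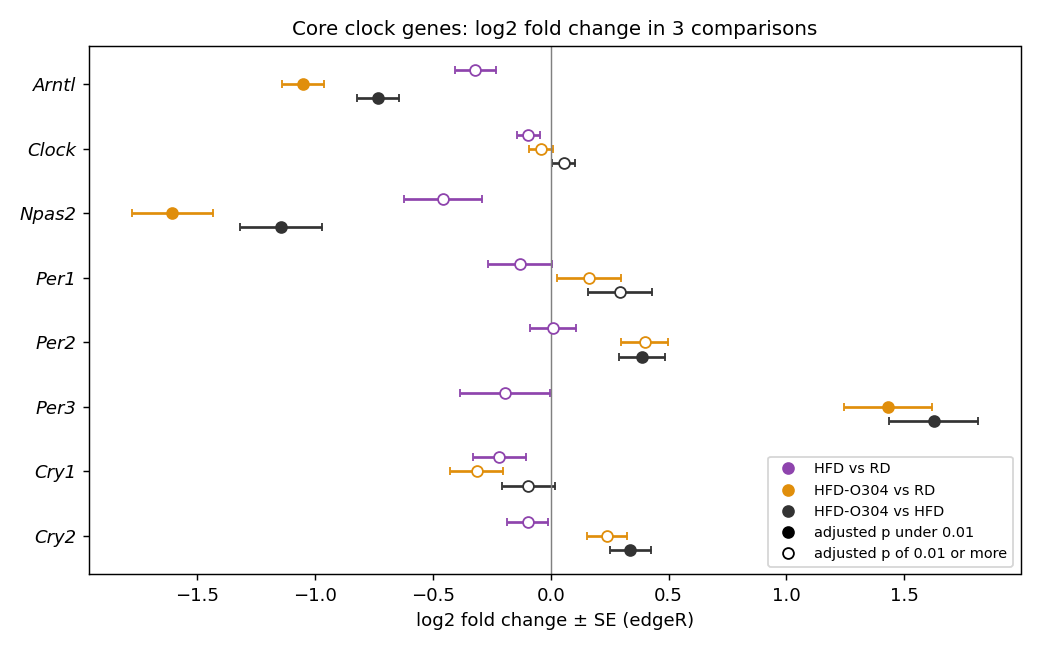
Log2 fold change ± SE (horizontal axis, edgeR) of the 8 core clock genes in HFD vs RD, HFD-O304 vs RD and HFD-O304 vs HFD islets, with filled points for an adjusted p under 0.01. Arntl and Npas2 lie left of 0 in all 3 comparisons and Per3 lies right of 0 by more than 1 in both comparisons of HFD-O304 islets, while the points of HFD vs RD are all open.

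HFD-O304 replicates 1 and 2 stood at the low end of the group for Arntl and Npas2 and at the high end for Per2 and Per3, so the comparisons were repeated without both, an alternative chosen after the data were seen. Arntl, Npas2 and Per3 still passed against RD, with log2 fold changes of -0.93, -1.38 and 1.22, and against HFD, with -0.62, -0.93 and 1.41. Per2 had 0.25 in HFD-O304 vs HFD islets (adjusted p = 0.0710, edgeR) and Cry2, at 0.33, no longer passed (adjusted p = 0.0190). In HFD vs RD islets Arntl then passed, with a log2 fold change of -0.31 (adjusted p = 0.00559).

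Within each library set the same 3 genes passed in both comparisons of HFD-O304 islets. Arntl had log2 fold changes in HFD-O304 vs RD islets of -1.21 in replicates 1 to 4 and -0.89 in replicates 5 to 7, Npas2 of -1.77 and -1.47, and Per3 of 1.61 and 1.20. Against HFD islets the values were -0.93 and -0.51 for Arntl, -1.51 and -0.75 for Npas2, and 1.93 and 1.28 for Per3. A test of the difference between the sets (interaction of diet and library set, edgeR) called 0 of 27229 genes in each comparison. The unadjusted p-values for HFD-O304 vs HFD were 0.0152 for Arntl, 0.0286 for Npas2, 0.0449 for Per2 and 0.0671 for Per3. Of all genes, 1314 were under 0.05.

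Per2 passed in 1 library set and not in the other, though the test of the difference between sets called no gene. In HFD-O304 vs HFD islets its log2 fold change was 0.55 in replicates 1 to 4 (adjusted p = 0.00597) and 0.16 in replicates 5 to 7 (adjusted p = 0.349, edgeR). Among HFD samples Per2 had 817 to 976 normalized counts in replicates 1 to 4 and 986 to 1258 in replicates 5 to 7, without overlap. The same held in HFD islets for Per1 (808 to 1053 and 1169 to 1505) and Per3 (150 to 303 and 316 to 401). For the other members the sets overlapped among HFD samples. The share of all genes that separate in this way was not counted, and the Per genes are named after their values were seen. In the fit of set over all groups no member passed, and Per1 came nearest, 0.30 higher on the log2 scale in replicates 5 to 7 (SE 0.095, adjusted p = 0.0452, edgeR). Cry2 had log2 fold changes in HFD-O304 vs HFD islets of 0.33 and 0.32 within the sets, and passed in neither (adjusted p = 0.0764 and 0.0202).

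To put activators and repressors side by side in each sample, every member's log2 CPM (counts scaled to a common library size) was converted to a z value over the 21 samples, and the z values were averaged over the 3 activators and over the 5 repressors. These scores describe the samples and were not tested. The activator mean was above 0 in all 7 RD samples (0.636 to 1.02) and below 0 in all 7 HFD-O304 samples (-1.47 to -0.176), with HFD samples between -0.594 and 0.718. This scaling gives Clock, the steadiest member, the same weight as Arntl and Npas2. In HFD replicates 4 to 7, whose activator means were below 0, the z of Clock was -2.38, -0.912, -1.92 and -1.09. In these samples the z of Arntl ran from -0.0157 to 0.445 and that of Npas2 from 0.0451 to 0.340. The repressor mean was above 0 in all 7 HFD-O304 samples (0.0264 to 1.05) and on both sides of 0 in RD (-0.964 to 0.362) and HFD samples (-1.48 to 0.573).

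The repressor mean minus the activator mean separated HFD-O304 from RD samples. It ran from -1.68 to -0.275 in RD islets (median -0.954) and from 0.605 to 2.52 in HFD-O304 islets (median 1.19). HFD islets covered the widest range, -2.03 to 0.739 (median -0.375), and overlapped both. Within HFD it divided by library set, from -2.03 to -0.375 in replicates 1 to 4 and from -0.125 to 0.739 in replicates 5 to 7, whereas the sets overlapped among RD and among HFD-O304 samples. HFD-O304 replicates 1 and 2 had the highest values, 2.31 and 2.52.

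**Figure D3:**
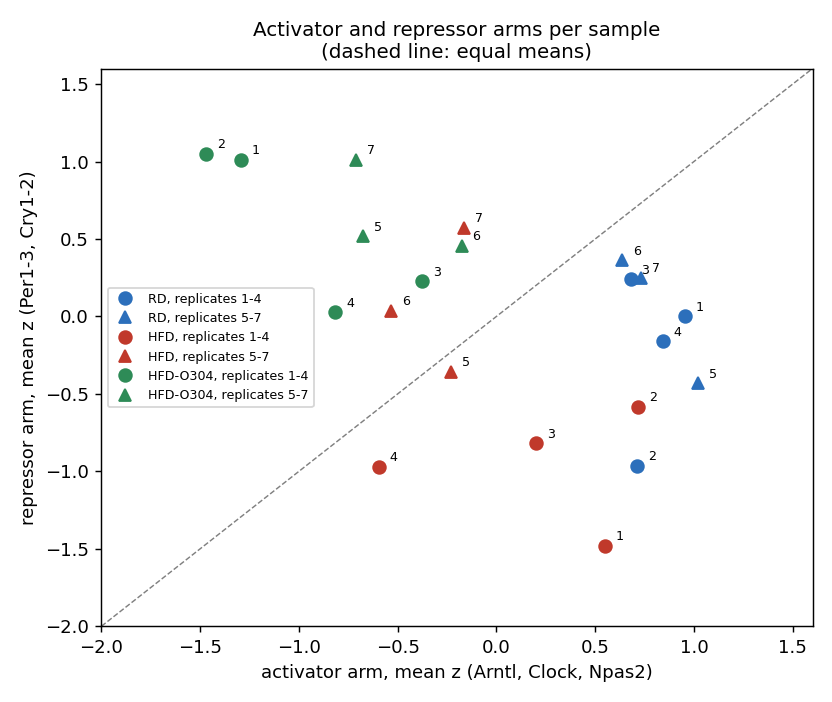
Mean z value of the repressors Per1, Per2, Per3, Cry1 and Cry2 (vertical axis) against that of the activators Arntl, Clock and Npas2 (horizontal axis) in each sample, numbered by replicate, with a dashed line where the means are equal. All 7 RD samples lie below the line and all 7 HFD-O304 samples above it, and HFD samples lie below it except replicates 6 and 7.

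Differences between single pairs of genes are made of the values already given, so they restate those values and are not a separate result. Log2 CPM is not corrected for gene length, so only the change of a difference between samples is read. The log2 CPM of Arntl minus that of Per3 ran from 1.40 to 2.77 in RD, from 1.38 to 2.73 in HFD and from -1.44 to 0.0745 in HFD-O304 islets, so that HFD-O304 samples did not overlap the others. For Arntl minus Per2 the ranges were 0.0441 to 0.669, -0.270 to 0.257 and -1.82 to -0.735. For Npas2 minus Clock, the 2 alternative partners of BMAL1, they were -4.17 to -3.46, -4.47 to -4.13 and -6.44 to -4.94.

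Members differed in how much they varied between samples of a group. The SD within groups on the log2 CPM scale was 0.43 for Per3, larger than in 96.3% of the same 13216 genes, 0.39 for Npas2 (94.8%) and 0.30 for Per1 (87.3%). It was 0.24 for Cry1, 0.20 for Per2, 0.18 for Arntl and 0.18 for Cry2, and 0.157 was the median of all these genes. Among the 1000 genes nearest in level to each, the SD was larger than in 98.7% for Per3, 96.8% for Per1, 93.3% for Npas2, 89.2% for Cry1, 85.4% for Per2, 84.2% for Cry2 and 80.1% for Arntl. For Npas2 the SD was 0.62 among HFD-O304 samples against 0.19 in RD and 0.16 in HFD samples.

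Within groups, Arntl was correlated with Npas2. Over the 21 samples, as deviations from their group means in log2 CPM, Pearson's r was 0.81 (permutation within groups, p = 0.00074, adjusted over 7 pairs p = 0.00518) and Spearman's rho was 0.66 (permutation p = 0.00500, adjusted p = 0.0350). Without the 2 samples farthest from the median of Arntl, HFD-O304 replicates 1 and 2, r was 0.54 (permutation, adjusted p = 0.234), so that the relation rests on those samples. By group, r was 0.94 in HFD-O304 (exact permutation p = 0.00437), 0.43 in RD (exact permutation p = 0.355) and 0.40 in HFD islets (exact permutation p = 0.377). Within replicates 1 to 4 it was 0.73 and within replicates 5 to 7 it was 0.71, with adjusted permutation p-values of 0.174 and 0.583.

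For the other 6 members no correlation with Arntl within groups passed. For Per2 r was -0.37 and rho -0.27, and for Per3 r was -0.35 and rho -0.36, each with an adjusted permutation p of 0.371 or more. For Clock, Per1, Cry1 and Cry2 r lay between -0.015 and 0.17, with adjusted permutation p-values of 0.712 or more. The value for Per1, 0.096, joins groups of opposite sign, with r of 0.80 in RD (exact permutation p = 0.0157, not adjusted), -0.64 in HFD (exact permutation p = 0.117) and 0.011 in HFD-O304 islets (exact permutation p = 0.984). A test of the difference between groups was not run. For Clock r was -0.63 in RD and 0.41 in HFD islets (exact permutation p = 0.137 and 0.368). Without HFD-O304 replicates 1 and 2, r with Per2 was 0.16 and with Per3 it was -0.032.

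**Figure D4:**
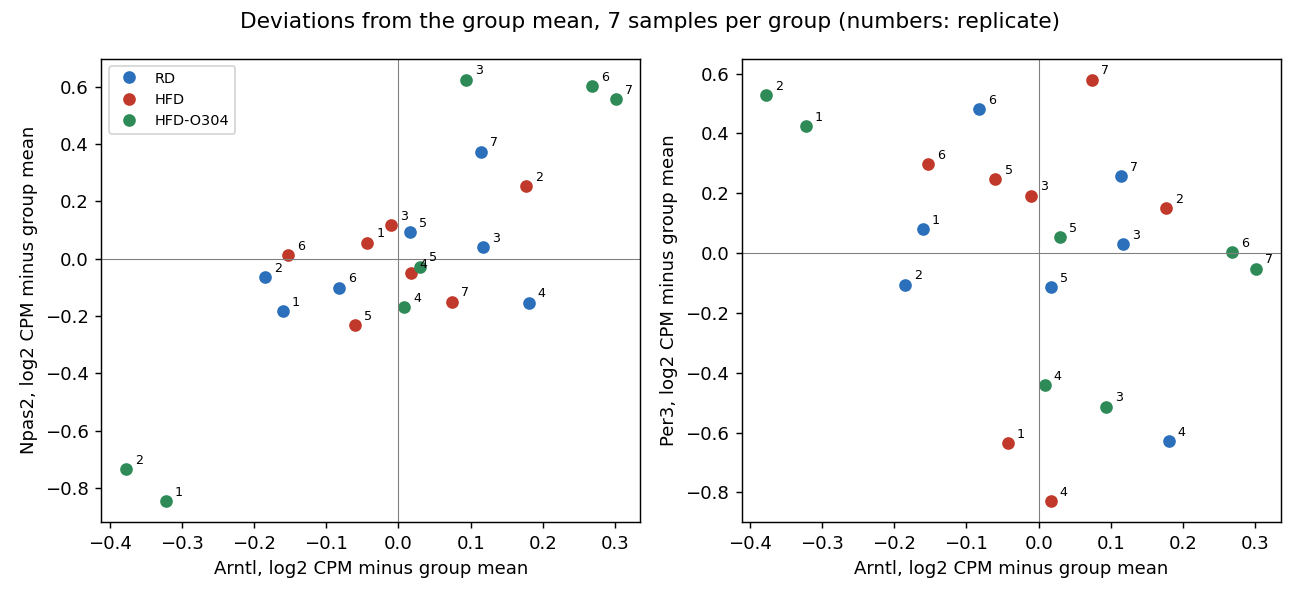
Deviation of each sample from its group mean in log2 CPM for Npas2 (left, vertical axis) and Per3 (right, vertical axis) against Arntl (horizontal axes), coloured by group and numbered by replicate. HFD-O304 replicates 1 and 2 lie lowest in both Arntl and Npas2, and r over the 21 samples was 0.81 for Npas2 and -0.35 for Per3.

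Other genes whose deviations were most like those of Arntl and Per2 were drawn from the genes with at least 50 normalized counts and are given as a description, since the highest of so many r values is high by selection. Those with the highest r with Arntl over the 21 samples were Tnfrsf11a (0.80), Samd10 (0.80), Pcdhgc4 (0.78), Cd82 (0.78) and D630039A03Rik (0.76). Those with the lowest were Hist1h4j (-0.76), Arl6ip6 (-0.74), Fam174a (-0.71), Arfip1 (-0.71) and Gm5165 (-0.70). For Per2 the highest were 2810001G20Rik (0.84), Crebzf (0.82), Commd4 (0.82) and Uckl1 (0.80), and the lowest Lclat1 (-0.84), Wwox (-0.83), Rflnb (-0.81), Klhl5 (-0.80) and Ak3 (-0.79). None of these genes is among the clock regulators below.

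Genes that the core loop drives or that act back on it were compared in the same fit. Of 14 second-loop and output regulators, 0 passed in HFD vs RD islets, where 3.54% of all genes did. In HFD-O304 vs RD islets 7 were higher and 1 lower, where 0.404% and 0.903% of all genes were. In HFD-O304 vs HFD islets the same 7 were higher and 2 lower, where 5.08% and 6.79% of all genes were. The median log2 fold change of the 14 was 0.50 against RD and 0.65 against HFD, beside 0.0078 and 0.027 over all genes. The REV-ERB repressors of Arntl, Nr1d1 and Nr1d2, had log2 fold changes in HFD-O304 vs RD islets of 1.06 (SE 0.19, adjusted p = 0.00122) and 1.01 (SE 0.13, adjusted p = 1.29e-05, edgeR). The activator Rora had -0.12 and did not pass.

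The D-box binding activators were higher in HFD-O304 islets, and a link to the D-boxes of Per3 or Per1 was not tested. Against RD islets Dbp had a log2 fold change of 1.70 (adjusted p = 1.68e-06), Hlf of 1.28 (adjusted p = 4.35e-05) and Tef of 1.08 (adjusted p = 2.72e-05), all by edgeR. Nfil3, which competes with them as a repressor, was lower by a log2 fold change of -0.99 (adjusted p = 9.61e-06, edgeR). Ciart, a repressor of the BMAL1 pair, had 1.41 and Bhlhe41, an E-box binding repressor, 0.60, both past the threshold. Against HFD islets the values were 1.84 for Dbp, 1.44 for Hlf, 1.27 for Tef, 1.84 for Ciart, 1.29 for Nr1d1, 1.19 for Nr1d2, 0.85 for Bhlhe41 and -0.73 for Nfil3. Timeless, a replication fork protein named after a fly clock gene, was the other lower gene, at -0.61 (adjusted p = 0.00713, edgeR). It is named because it passed, after its value was seen, and it no longer passed without HFD replicate 1, 2, 4 or 6 or HFD-O304 replicate 1, 2, 4, 6 or 7. In the fit of library set, Tef was 0.39 higher on the log2 scale in replicates 5 to 7 (adjusted p = 0.00867, edgeR). Dbp and Hlf did not pass there (adjusted p = 0.0231 and 0.0399, edgeR). The interaction of diet and library set for HFD-O304 vs HFD called no gene. Its unadjusted p (edgeR) was 0.00368 for Hlf, 0.00404 for Tef and 0.0603 for Dbp.

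**Figure D5:**
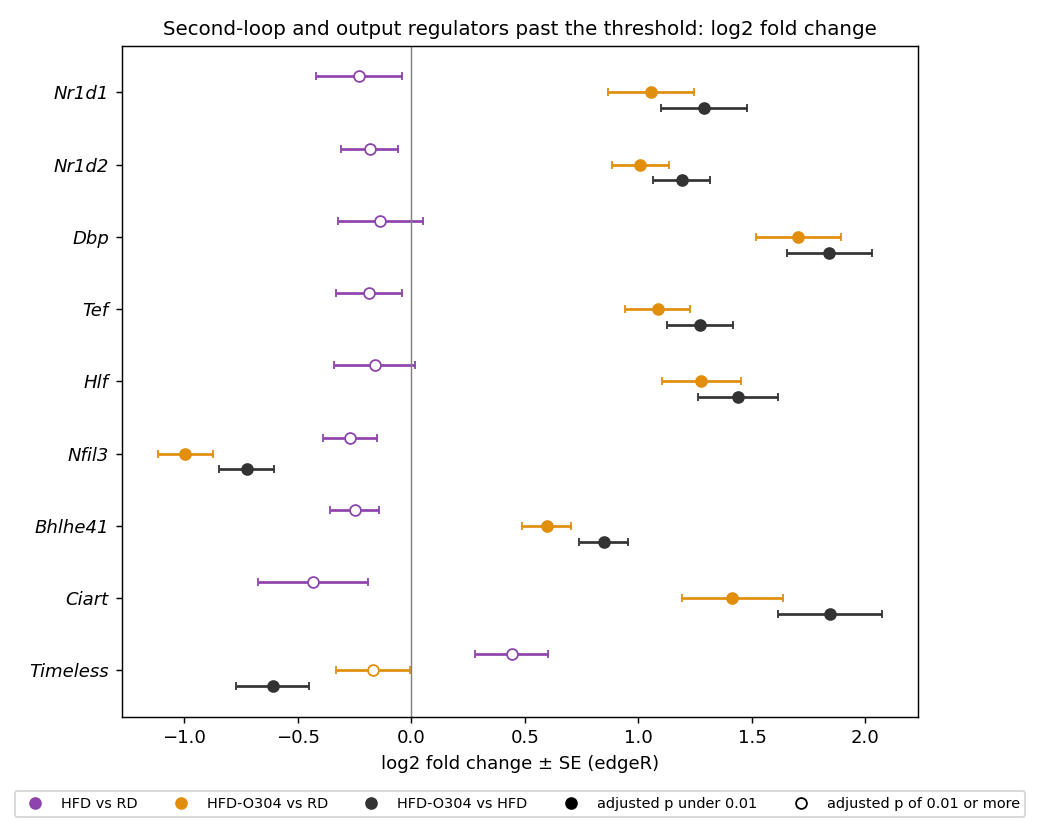
Log2 fold change ± SE (horizontal axis, edgeR) of the second-loop and clock output regulators that passed in at least 1 of the 3 comparisons, with filled points for an adjusted p under 0.01. The points of Nr1d1, Nr1d2, Dbp, Tef, Hlf, Bhlhe41 and Ciart are filled and right of 0 in both comparisons of HFD-O304 islets, Nfil3 is filled and left of 0 in both, Timeless is filled only against HFD, and no point of HFD vs RD is filled.

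Genes that modify clock proteins or act with them were compared in the same way. Of 17 kinases, ligases and cofactors, 0 passed in HFD-O304 vs RD islets, where 1.31% of all genes did. In HFD vs RD islets, where 3.54% of all genes passed, 2 of the 17 were lower, the corepressor Ncor1 (-0.24, adjusted p = 0.00468) and the deacetylase Sirt1 (-0.29, adjusted p = 0.00708, edgeR). Neither passed without RD replicate 1 or 7 or HFD replicate 1, 4 or 5, and Sirt1 also not without RD replicate 2, 4, 5 or 6 or HFD replicate 6, the log2 fold changes then lying between -0.31 and -0.21. In HFD-O304 vs HFD islets, where 11.9% of all genes passed, 3 of the 17 were higher: Sirt1 (0.45), Nampt (0.38), which makes the NAD that SIRT1 consumes, and Btrc (0.26), which encodes a ligase that marks PER proteins for decay. Of the 2 catalytic AMPK subunits, Prkaa1 was higher in HFD-O304 vs HFD islets (0.23, adjusted p = 0.00593, edgeR), and neither passed in the other comparisons. Of 12 glucocorticoid-responsive genes, among them Per1, Fkbp5 was higher in HFD-O304 islets in both comparisons (0.40 against RD and 0.48 against HFD), Mt1 (1.15) and Mt2 (1.42) were higher and Sgk1 (-0.41) lower against HFD, and none passed in HFD vs RD. Of 10 genes induced by cAMP or activity, 0 passed in either comparison with RD, and Nr4a2 (-1.38), Atf3 (-1.28) and Crem (-0.58) were lower in HFD-O304 vs HFD. These genes and Prkaa1 are named because they passed, after their values were seen.

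Markers of beta and other islet cells moved with some of these comparisons, and their part in the results was not tested. Of 9 beta cell markers, Iapp was higher and Slc2a2 lower in HFD vs RD islets. With O304 added to the fat diet, Slc2a2 and Ucn3 were higher and Iapp, Ins1 and Ins2 lower than in HFD islets. None of the 9 passed between HFD-O304 and RD islets. The beta markers took 29.2% to 32.2% of the pairs on genes in RD islets. These shares were 30.1% to 34.3% in HFD and 27.6% to 31.0% in HFD-O304 islets. In HFD vs RD islets 4 of 7 alpha cell markers and 3 of 6 delta and PP cell markers were lower, and 2 alpha cell markers higher. In HFD-O304 vs HFD islets 5 of 7 alpha and 5 of 6 delta and PP cell markers were higher, and 2 alpha markers lower. The alpha markers took 2.21% to 2.93% of the pairs on genes in RD, 1.06% to 1.81% in HFD and 2.52% to 3.29% in HFD-O304 islets, and the delta and PP cell markers 0.545% to 0.907%, 0.334% to 0.717% and 0.602% to 0.994%. No marker of alpha cells or of delta and PP cells was at 0 in any sample. In HFD-O304 vs RD islets none of the 7 alpha or 6 delta and PP cell markers passed, and the ranges of both shares overlapped. Their median log2 fold changes were 0.20 and 0.27, beside 0.0078 over all genes, with 5 of 7 and 5 of 6 markers higher.

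Markers of duct and endothelial cells did pass in HFD-O304 vs RD islets, where 1.31% of all genes passed. Of 6 duct markers, Krt19, a keratin, was higher (1.05, adjusted p = 0.00164, edgeR), and of 6 endothelial markers, Pecam1, an adhesion molecule, was lower (-0.33, adjusted p = 0.00693, edgeR). Against HFD islets, 3 duct markers were higher (Krt19, Sox9 and Cftr), 2 endothelial markers lower (Pecam1 and Cdh5), 3 of 6 stellate cell and fibroblast markers lower (Col1a2, Col3a1 and Pdgfrb) and 1 of 7 macrophage markers higher (Csf1r). No marker on these 4 lists passed in HFD vs RD islets. Of all genes, 3.54% passed there and 11.9% passed in HFD-O304 vs HFD. The summed normalized count of the duct markers was 7431 to 9812 in RD, 8856 to 13856 in HFD and 8566 to 11012 in HFD-O304 islets, that of the endothelial markers 15831 to 19097, 15107 to 21780 and 12302 to 18792, that of the stellate cell and fibroblast markers 1519 to 2917, 1712 to 4853 and 1151 to 3184, and that of the macrophage markers 2545 to 3087, 2299 to 3490 and 2661 to 3277, so that the groups overlapped on every list. On these 4 lists only Cftr was at 0, in 1 sample. The part of these cells in the results on the clock genes was not tested. Of 7 proliferation genes, 6 were higher in HFD vs RD islets, 6 lower in HFD-O304 vs HFD and 0 passed in HFD-O304 vs RD, and their summed normalized count was 1390 to 1913 in RD, 1558 to 5488 in HFD and 1111 to 1558 in HFD-O304 islets. No acinar marker of 10 passed in any comparison, and with the acinar level as a covariate the counts of members that passed stayed at 0, 3 and 5.

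Exons of Arntl and Cry2 overlap those of the antisense transcripts Gm45355 and D930015M05Rik, by 33 and 149 bases in the longest single overlap. The strand-specific counts used here keep these transcripts apart. On counts without strand the members that passed were 0, 3 and 5 in the 3 comparisons, as with strand.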

How the data were processed

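RNA-seq of islets from 3 groups of 7 samples was analysed at the level of genes. The authors aligned paired reads to GRCm38 with STAR (Ensembl release 96 annotation, per the paper's methods) and deposited raw, unscaled counts of read pairs for each gene. The deposited counts leave out pairs that map to several places or several genes, and the counts of the strand that held 28.8 to 36.3 times the pairs of the other were used. Of 55536 identifiers, 55450 were matched to a symbol, and all 55536 had an annotated length in GENCODE vM21. Groups were taken from the labels' titles and diet tags. The title of HFD replicate 3 reads "HF", and it was grouped by its diet tag.

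Genes whose reads over the 21 samples summed to 10 or more entered 1 edgeR 4.0.16 quasi-likelihood fit of all groups (TMM scaling, R 4.3.3), with Benjamini-Hochberg adjustment over all genes and a threshold of 0.01. Normalized counts are counts divided by DESeq2 1.42.0 size factors, and log2 CPM used a prior count of 2. Correlations were tested by 100000 permutations of samples within groups, or by all 5040 orders within 1 group, two-sided. Promoters came from RefSeq. On simulated counts for HFD vs RD with 26650 genes, the fit recovered 63 of 103 genes changed by 0.5 and 91 of 97 changed by 1 on the log2 scale, with 0 false calls. No pair of replicates agreed within sampling noise (chi-square per gene of 8.05 or more). Named genes were the 8 members, up to 12 genes that passed from the 2 lists of clock regulators, ranked by adjusted p, and the 5 genes with the highest and the 5 with the lowest correlation with Arntl and with Per2, of which 1 gene is not reported here. The members, lists and tests were chosen with earlier results of these data known. Alternatives were DESeq2, RLE scaling, other count filters, counts without strand, only the 2 groups compared, a replicate block, library set as a covariate or as separate fits, an acinar covariate, a threshold of 0.05 and each sample left out. The labels say that islets of several mice were pooled, and p-values measure the spread between pools. ChIP-seq data were not analysed here.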

Additional observations from a re-analysis of the deposited data

Results flagged for a closer look

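Among 60 sets of 7 samples (the 8 members and 12 named clock regulators in 3 groups), 1 held a sample far from the others, where chance gives about 1 in 20. Ciart in RD replicate 1 had 20.3 normalized counts, the lowest of its group. No member of the core loop had such a sample, Per1 in RD replicate 2 (744 normalized counts) coming nearest.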

How the results depend on the processing

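Arntl, Npas2 and Per3 passed in both comparisons of HFD-O304 islets under all 33 alternatives, with log2 fold changes from -1.21 to -0.89 for Arntl, -1.77 to -1.38 for Npas2 and 1.20 to 1.61 for Per3 against RD, and from -0.93 to -0.51, -1.51 to -0.75 and 1.28 to 1.93 against HFD. In HFD vs RD islets 1 member passed with DESeq2 (Arntl), at a threshold of 0.05 (Arntl), within replicates 5 to 7 (Npas2) and without HFD-O304 replicates 1 and 2 (Arntl), and 2 passed with only these 2 groups in the fit. In HFD-O304 vs HFD islets 3 members passed within replicates 5 to 7 and without HFD-O304 replicates 1 and 2. With each sample left out in turn, 0 members passed in HFD vs RD, 3 to 4 in HFD-O304 vs RD and 3 to 5 in HFD-O304 vs HFD, and 0 to 4, 8 and 11 to 13 clock regulators passed. Of the clock regulators, 2 passed in HFD vs RD, 1 with only these 2 groups and 0 within either library set, and 5 within replicates 1 to 4 in HFD-O304 vs RD, where 8 passed in the full fit. Over all genes in HFD vs RD, DESeq2 called 958 higher and 787 lower where edgeR called 544 and 419.

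Same-numbered samples did not deviate together in every pair (4, 6 and 5 of 7 pairs over a correlation of 0.1 in the 3 comparisons), so the numbers were not taken to pair samples. With a replicate block 0, 3 and 5 members passed, as without it, and 3, 9 and 14 clock regulators in place of 2, 8 and 12.

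Signs of values near 0 changed. In HFD vs RD, Per2 went from 0.010 to -0.16 within replicates 1 to 4 and to between -0.058 and 0.058 with each sample left out in turn, below 0 without RD replicate 4 (-0.010) or 5 (-0.030) or HFD replicate 5 (-0.0066) or 7 (-0.058), and Per1 from -0.13 to 0.087 within replicates 5 to 7. Cry1 in HFD-O304 vs HFD was 0.069 within replicates 1 to 4. The correlation of Arntl with Npas2 was 0.54 without the 2 farthest samples, 0.73 within replicates 1 to 4 and 0.71 within replicates 5 to 7, past no threshold. That with Clock was 0.0066 on counts without strand, that with Per1 -0.0072 within replicates 5 to 7, and that with Per2 0.16 without the 2 farthest samples and 0.46 within replicates 5 to 7. The cause of these changes was not tested, beyond the fewer samples in the separate fits. Among the members, depth limits Npas2 in HFD-O304 replicate 2, where it had 21 reads.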
